A study of Mus musculus with 51 samples.

Results

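A pair of stromal cell lines that support hematopoietic stem and progenitor cells in culture were compared across all measured genes: 14F1-1, from adult bone marrow, and 2012, from fetal liver. The pair comprised 6 of the 51 arrays of the series, 3 per line, chosen by their sample titles. The 14F1-1 cells came from adult BALB/c mice and were grown at 37 °C. The 2012 cells came from C57BL/6 embryos of day 14.5 and were grown at 33 °C. Both were labelled supportive, both were grown to confluence on gelatin-coated plates, and their total RNA was read on Affymetrix mouse gene 1.0 ST arrays. Each tissue is represented by 1 line, so the differences belong to these lines; line, tissue of origin, age, strain and culture temperature cannot be told apart. Whether a line's 3 arrays came from independent cultures is not stated in the labels, and the p-values therefore rest on array-to-array spread that could be purely technical.

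Stromal cells of the fetal liver and of the bone marrow form the niches in which hematopoietic stem cells expand before birth and are maintained in the adult. They act through secreted cytokines such as stem cell factor (Kitl), through the chemokine Cxcl12, through adhesion molecules such as Vcam1, and through the matrix they lay down. Bone marrow niche cells are reticular cells with traits of fat and bone precursors, whereas the fetal liver holds stellate, pericytic and other mesenchymal cells.

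All values are log2 RMA signals, and every difference is 14F1-1 minus 2012 on that scale, so that a difference of 1 is 2-fold. A single signed or unsigned number in brackets after a gene is this difference. A gene is called higher or lower where limma gave an adjusted p under 0.05 over 19938 genes in a fit to the 15 arrays that were normalized together. These held 3 further lines grown at 33 °C, AFT011 from C57BL/6 fetal liver of day 14.5 (non-supportive), and AM14-1C4 and AM30-3F4 from the AGM (aorta-gonad-mesonephros) of (CBAxC57BL/10)F1 embryos of day 11 (both supportive). Across the 15 arrays the quartiles of the gene signals were 5.98, 7.38 and 9.22. The 14F1-1 arrays correlated with each other at 0.998 across genes. In 2012, replicates 2 and 3 correlated at 0.998, while replicate 1 stood apart at 0.994 with each of them. Between the lines the correlation was 0.949 to 0.954. Without replicate 1 of 2012, 8640 genes were called, 4267 higher and 4373 lower, against 8611 with it.

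The lines differed at a large share of their genes. Of 19938 genes 8611 were called, or 43.2%, with 4217 (21.2%) higher and 4394 (22%) lower in 14F1-1. The median difference over all genes was -0.04. Of the called genes 1476 (7.40% of all) differed at least 2-fold, 810 higher and 666 lower. A difference of at least 8-fold was called for 77 genes on the higher side and 65 on the lower. The 3 arrays of one line all lay above those of the other for 9564 genes, of which 8357 were called.

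**Figure D1:**
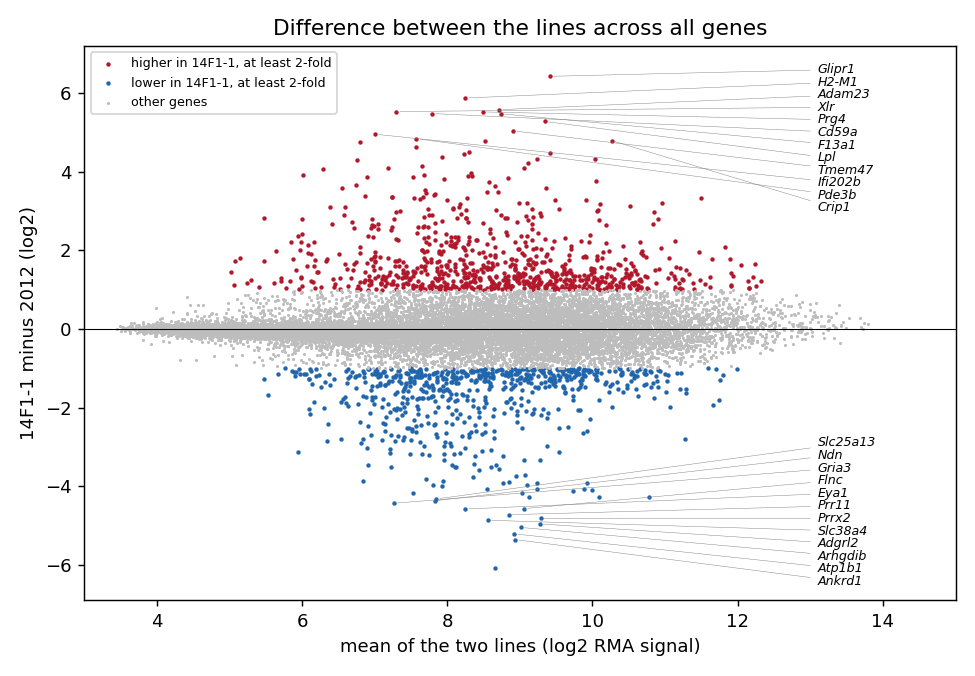
Each point is 1 gene, with the mean log2 RMA signal of the 2 lines on the x axis and 14F1-1 minus 2012 on the y axis. Red points were called and at least 2-fold higher (810 genes), blue points called and at least 2-fold lower (666), grey points all others; the 24 genes with the largest differences under the naming rule carry their symbols.

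The largest positive difference was that of Glipr1, a secreted CAP-domain protein, with signals of 12.66, 12.62 and 12.60 in the 14F1-1 arrays, against 6.42, 6.04 and 6.15 in the 2012 arrays. Its difference was 6.43 (SE 0.08, adjusted p = 1.53e-18), or 86.1-fold. Adam23, an integrin-binding member of the ADAM family without protease activity, gave 11.49, 11.55 and 11.48 in 14F1-1, against 6.06, 6.04 and 5.69 in 2012, and the A subunit of coagulation factor XIII (F13a1), a transglutaminase that cross-links matrix, gave 11.47, 11.58 and 11.38 in 14F1-1, against 6.28, 5.91 and 5.82 in 2012. In both genes the 2012 arrays lay below the first quartile or close to it. The naming rule took only genes in which the lines did not overlap. Cd59a (5.48), which blocks the membrane attack complex, Pde3b (4.84), a cyclic AMP phosphodiesterase, the membrane protein Tmem47 (5.04) and the LIM protein Crip1 (4.79) were higher as well. Also among the 12 largest were H2-M1 (5.87), Xlr (5.53) and Ifi202b (4.95), which belong to families of near-identical copies, so that the copy measured is uncertain. Prg4 and Lpl, the other two, are described with their groups.

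Lower in 14F1-1 by the largest amount under the naming rule was Ankrd1, a stretch- and YAP-responsive ankyrin protein. It gave 6.37, 6.09 and 6.30 in the 14F1-1 arrays, against 11.54, 11.58 and 11.71 in the 2012 arrays, a difference of -5.36 (SE 0.07, adjusted p = 3.81e-18). The sodium pump subunit Atp1b1 gave 6.24, 6.32 and 6.40 in 14F1-1, against 11.51, 11.50 and 11.58 in 2012. The adhesion receptor Adgrl2 (-4.96), the cell cycle protein Prr11 (-4.72), filamin C (Flnc, -4.57), the glutamate receptor subunit Gria3 (-4.43) and the mitochondrial carrier Slc25a13 (-4.32) were lower by a like amount. With the mean of its probe sets in place of the brightest, Adgrl2 had a smaller difference, -3.79. One transcript outside that rule, AI506816, chosen after its values were seen, had the most negative difference of all genes at -6.08, with 5.78, 5.74 and 5.32 in 14F1-1, against 11.50, 11.91 and 11.66 in 2012. Its level was 11.74 in AFT011, 11.30 in AM14-1C4 and 11.63 in AM30-3F4, so among the 5 lines normalized together 14F1-1 was the one with a low signal.

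Placing the 2 lines among the 5 showed which of them was the extreme one. Of the 810 genes at least 2-fold higher, 14F1-1 had the highest of the 5 line means for 683 and 2012 the lowest for 330, with both true for 239. Of the 666 at least 2-fold lower, 14F1-1 had the lowest mean for 538 and 2012 the highest for 323, with both true for 233. Over all genes, 14F1-1 was the highest or lowest line for 45.4% and 2012 for 41.3%. The genes were picked for a difference between these lines, which by itself favours extreme positions.

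Factors that stromal cells present to stem cells differed in both directions. Of 36 measured niche factors 25 were called, 11 of them higher and 14 lower (69.4%, against 43.2% of all genes), with a median of -0.05 against -0.04 over all genes. Among 19 cytokines and growth factors 8 were higher and 5 lower. Angpt1, a Tie2 ligand, gave 9.98, 10.23 and 10.12 in the 14F1-1 arrays, against 5.68, 5.76 and 5.76 in the 2012 arrays (difference 4.38, SE 0.08, adjusted p = 1.01e-16). Its signal in 2012 was below the first quartile of the genes, and 14F1-1 was the highest of the 5 lines. Il7, the lymphoid growth factor, gave 8.49, 8.92 and 8.21 in the 14F1-1 arrays, against 5.65, 5.97 and 6.21 in the 2012 arrays (difference 2.60, adjusted p = 1.04e-10). Kitl, stem cell factor, gave 11.95, 12.04 and 11.96 in the 14F1-1 arrays, against 10.38, 10.43 and 10.51 in the 2012 arrays (difference 1.54, adjusted p = 1.9e-12), so it was well expressed in both lines and 2.91-fold higher in 14F1-1. Angptl4 (1.96), Fgf7 (1.12), Tgfb1 (0.54), Csf1 (0.50) and Igf1 (0.46) were higher as well. Among the lower ones, Ptn (-2.53), the heparin-binding factor pleiotrophin, fell most, ahead of the BMP antagonist Grem1 (-0.81), Lif (-0.43), Igf2 (-0.33) and Bmp4 (-0.32). Il6 (0.21), Flt3l (0.17), Angptl7 (0.07), Il11 (-0.09), Fgf1 (-0.11) and Mdk (-0.12) did not pass.

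The chemokine Cxcl12, which retains stem cells in the niche, gave 7.18, 7.30 and 7.34 in the 14F1-1 arrays, against 11.11, 11.23 and 11.23 in the 2012 arrays. Its difference was -3.92 (SE 0.06, adjusted p = 1.15e-17), or 15.1-fold lower in 14F1-1. The other lines held 11.90 in AFT011, 11.20 in AM14-1C4 and 11.27 in AM30-3F4, so 14F1-1 had the lowest mean of the 5. Adhesion and matrix proteins of the niche went mostly the same way, with 6 of 9 lower and 2 higher. Vcam1, the ligand of the integrin VLA-4, gave 7.17, 7.55 and 7.44 in the 14F1-1 arrays, against 10.76, 10.70 and 10.70 in the 2012 arrays (difference -3.34, adjusted p = 1.01e-14). Periostin (Postn) gave 6.07, 5.81 and 5.93 in the 14F1-1 arrays, against 9.89, 9.99 and 9.91 in the 2012 arrays (difference -3.99, adjusted p = 1.57e-15). In these genes no array of one line overlapped the other. Tenascin C (Tnc, -3.15), N-cadherin (Cdh2, -1.75), Ncam1 (-1.40) and matrix Gla protein (Mgp, -1.20) were lower too. The exceptions were lubricin (Prg4), a mucin-like surface lubricant, with 11.29, 11.24 and 11.22 in 14F1-1, against 5.67, 5.75 and 5.77 in 2012 (difference 5.52, adjusted p = 1.05e-16), and fibronectin (Fn1, 0.41), while Thbs1 (0.09) did not pass.

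Of 4 Notch ligands and related proteins, Dlk1, a noncanonical ligand that is made by fetal liver stroma and precursor cells, gave 8.03, 7.93 and 7.92 in the 14F1-1 arrays, against 11.97, 11.87 and 11.82 in the 2012 arrays. It was 15.2-fold lower in 14F1-1 (difference -3.93, adjusted p = 9.76e-16). Both lines lay within the range of the other 3, whose means were 7.80 in AFT011, 13.69 in AM14-1C4 and 8.09 in AM30-3F4. Jag1 (-0.0042), Jag2 (-0.09) and Dll1 (0.11) did not pass, and all had signals near or below the median gene in both lines. Of the transcription factors of bone marrow reticular cells, Foxc1 (0.82) was higher, Ebf3 (-0.39) lower, and Prrx1 (0.04), at 12.37 against 12.33, did not pass.

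**Figure D2:**
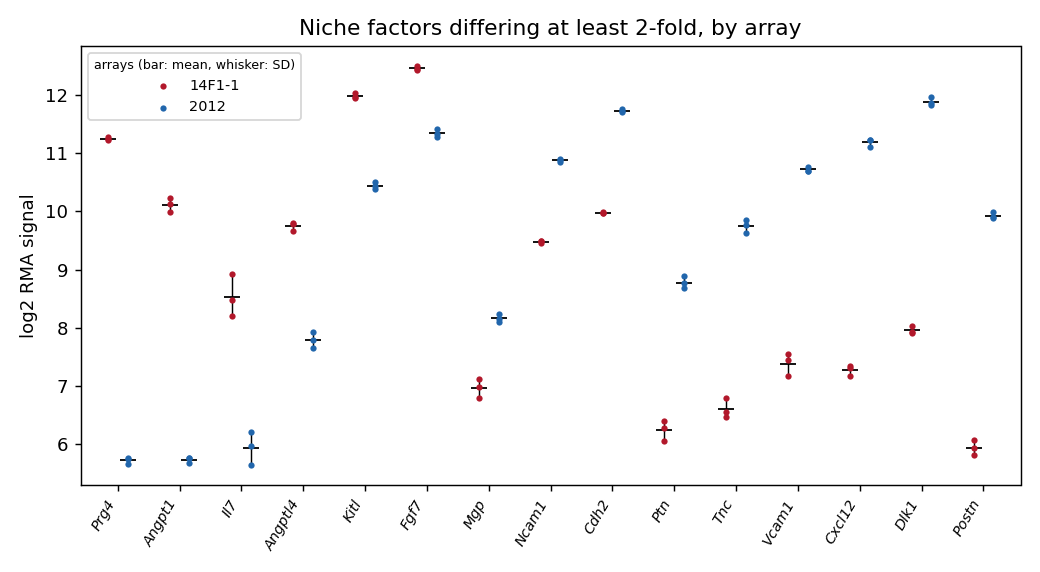
The y axis gives the log2 RMA signal of the 15 niche factors that differed at least 2-fold; points are arrays (14F1-1 red, left; 2012 blue, right), bars means and whiskers SDs (n = 3). The 6 genes at the left were higher and the 9 at the right lower in 14F1-1, with no overlap between the lines in any of them. They were picked for a called difference of at least 2-fold, which by itself favours this, and 48% of all genes did not overlap.

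Chemokines and interleukins other than these were called about as often as all genes (15 of 29, 51.7%; 7 higher, 8 lower; median -0.10). The interleukin 1 receptor antagonist Il1rn gave 10.43, 10.75 and 10.44 in 14F1-1, against 6.10, 6.11 and 5.93 in 2012 (difference 4.49, adjusted p = 1.45e-16). The monocyte chemokine Ccl9 (3.21) and osteoprotegerin, the decoy receptor of RANKL (Tnfrsf11b, 2.66), were higher as well, and so were Il15 (1.32) and Cxcl5 (1.22). The interferon-induced chemokine Cxcl10 (-1.22) was lower. Csf2 (0.09), Csf3 (0.01) and Tnf (-0.10) did not pass, and neither did Tnfsf11 (-0.18).

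Matrix genes differed in both directions. Of 17 interstitial collagens 4 were higher, 5 lower and 8 did not pass (52.9% called, near the 43.2% of all genes). Col1a2, a chain of type I collagen, gave 7.75, 7.5 and 7.76 in the 14F1-1 arrays, against 11.80, 11.88 and 11.66 in the 2012 arrays (difference -4.11, adjusted p = 2.96e-15). Its partner chain Col1a1 differed less, at 10.21 ± 0.11 in 14F1-1 and 11.81 ± 0.21 in 2012 (SD, n = 3 each; difference -1.59), so the 2 chains of the same trimer changed by unequal amounts. Col6a3 (3.21), Col3a1 (1.09) and Col12a1 (0.98) were higher. Small leucine-rich proteoglycans, which bind collagen fibrils and growth factors, were among the genes with the largest negative differences. Biglycan (Bgn) gave 8.75, 8.75 and 8.45 in 14F1-1, against 12.84, 12.99 and 12.93 in 2012 (difference -4.27). Decorin (Dcn, -3.82) and asporin (Aspn, -3.76) were close behind, while of the 13 measured proteoglycans of the family 3 were higher, among them Ecm2 (0.74), 4 lower and 6 did not pass (53.8% called); under the alternatives 1 to 3 were higher. Among 20 basement membrane genes 5 were higher and 8 lower (65% called, against 43.2% of all genes). Nid2 (-2.02), Lama2 (-1.20) and Col4a6 (-1.17) were the most negative and Lamb3 (1.18) the most positive.

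Matrix-degrading enzymes and their inhibitors were called in both directions (10 higher and 10 lower of 27, 74.1%, against 43.2% of all genes). Timp3, an inhibitor that stays bound to the matrix, gave 8.02, 7.93 and 7.91 in the 14F1-1 arrays, against 11.95, 12.05 and 12.12 in the 2012 arrays (difference -4.08, adjusted p = 7.74e-18). Gelatinase A (Mmp2) gave 7.24, 7.24 and 6.99 in the 14F1-1 arrays, against 10.40, 10.39 and 10.35 in the 2012 arrays (difference -3.22). Higher in 14F1-1 were the inhibitors Serpinf1 (2.66) and Timp1 (1.43) and the proteases Mmp19 (2.23) and Adam19 (1.78). Of 19 integrin subunits, the receptors for these matrix proteins, 10 were higher (52.6%, against 21.2% of all genes) and 3 lower (1 to 3 under the alternatives), with a median of 0.14. Itgb8 (2.06), Itga1 (1.23), Itgb7 (0.97), Itga5 (0.94) and Itgb5 (0.80) had the largest differences, whereas Itgb1, the most widely shared beta chain, did not pass (0.14). Cadherins and protocadherins were called at about the rate of all genes (8 of 21), with Pcdh18 (-2.59), Cdh3 (-2.20) and Cdh2 (-1.75) lower and Pcdh7 (1.90) higher.

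Several signalling pathways showed exchanges between related members. In the Wnt pathway 15 of 52 genes were higher and 15 lower (57.7% called, against 43.2% of all genes). Of its secreted antagonists, Sfrp1 gave 9.60, 9.61 and 9.70 in 14F1-1, against 6.42, 6.49 and 6.14 in 2012 (difference 3.29) and Sfrp2 gave 9.86, 9.90 and 9.87 in 14F1-1, against 12.52, 12.86 and 12.63 in 2012 (difference -2.79). These related decoys thus differed in opposite directions, and Sfrp4 (2.56) and Wif1 (1.74) were higher with Sfrp1. Rspo2 (1.80), an agonist that binds Lgr receptors, and its receptors Lgr6 (2.17) and Lgr4 (1.48) were higher. Of the coreceptors, Lrp5 was lower (-1.79) and Lrp6 too (-1.09). Axin2, a general target of the pathway, did not pass (-0.18), while the target Ccn4 (-2.0) was lower. In the TGF-beta and BMP pathway (14 higher and 12 lower of 43, 60.5% called against 43.2% of all genes) the antagonist Chrdl1 (2.27) was higher and Fst (-2.02) lower, and the targets Tgfbi (-2.67), Id4 (-1.55) and Id1 (-1.40) were lower.

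Of growth factors and receptors 11 of 40 were higher and 13 lower (60% called, against 43.2% of all genes). The ligands held 10 of the 11 higher genes. Hepatocyte growth factor (Hgf) gave 9.45, 9.79 and 9.67 in the 14F1-1 arrays, against 5.82, 5.45 and 5.87 in the 2012 arrays (difference 3.92, adjusted p = 8.11e-14). Fgf2 gave 10.49, 10.51 and 10.42 in 14F1-1, against 8.17, 7.83 and 8.10 in 2012 (difference 2.44). Vegfa (1.66), Pdgfc (1.35) and Pdgfa (1.04) were higher too. Pdgfd (-2.86) and Nrg1 (-2.09) were lower, and so were the receptors Egfr (-2.05) and Fgfr2 (-1.93). Pdgfrb, a general mesenchymal receptor, did not pass (11.40 against 11.42). The IGF axis had 5 higher and 9 lower of 17 (82.4% called, against 43.2% of all genes). Its largest members were RNA-binding proteins of the fetal growth program, Igf2bp3 and Igf2bp1. Igf2bp3 gave 6.26, 5.88 and 5.87 in the 14F1-1 arrays, against 9.74, 10.00 and 9.87 in the 2012 arrays (difference -3.86, adjusted p = 1.18e-14), and Igf2bp1 gave 6.78, 6.43 and 6.75 in 14F1-1, against 10.02, 10.18 and 10.05 in 2012 (difference -3.43). The IGF binding protein Igfbp6 (-2.76) was lower as well, whereas Igf1 and Igf2 themselves differed by under 0.5. Of 36 guidance genes 11 were higher and 14 lower (69.4% called, against 43.2% of all genes). Robo1 (2.92) was among the higher. Its ligand Slit3 (-2.68), the ephrin system genes Epha4 (-2.52), Efna5 (-2.51) and Efnb2 (-2.24) and the semaphorin Sema3e (-2.42) were among the lower.

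Homeobox genes, which mesenchymal cells keep expressing according to their position in the embryo, differed cluster by cluster. Of 10 measured Hoxa genes 9 were higher and 0 lower (median 0.71); the tenth, Hoxa4, did not pass (0.06). Of 9 Hoxb genes 0 were higher and 7 lower (median -1.28). Of 9 Hoxc genes 1 was higher and 8 lower (median -1.19), and of 9 Hoxd genes 0 were higher and 1 lower. Over all Hox genes 26 of 37 were called (70.3%, against 43.2% of all genes). Hoxc8 gave 7.15, 6.97 and 7.13 in the 14F1-1 arrays, against 10.74, 10.85 and 10.87 in the 2012 arrays (difference -3.74, adjusted p = 9.16e-15). Hoxb9 gave 7.81, 7.64 and 7.68 in 14F1-1, against 9.73, 9.89 and 9.90 in 2012 (difference -2.13). Hoxa11 gave 8.41, 8.25 and 8.70 in 14F1-1, against 6.83, 6.86 and 6.83 in 2012 (difference 1.61). At the end of the Hoxc cluster the sign turned: Hoxc12 was lower (-2.08) and Hoxc13 higher (1.35), with 9.59 ± 0.14 in 14F1-1 and 8.24 ± 0.13 in 2012. Genes of one cluster lie side by side and share regulation, so they are not independent observations.

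**Figure D3:**
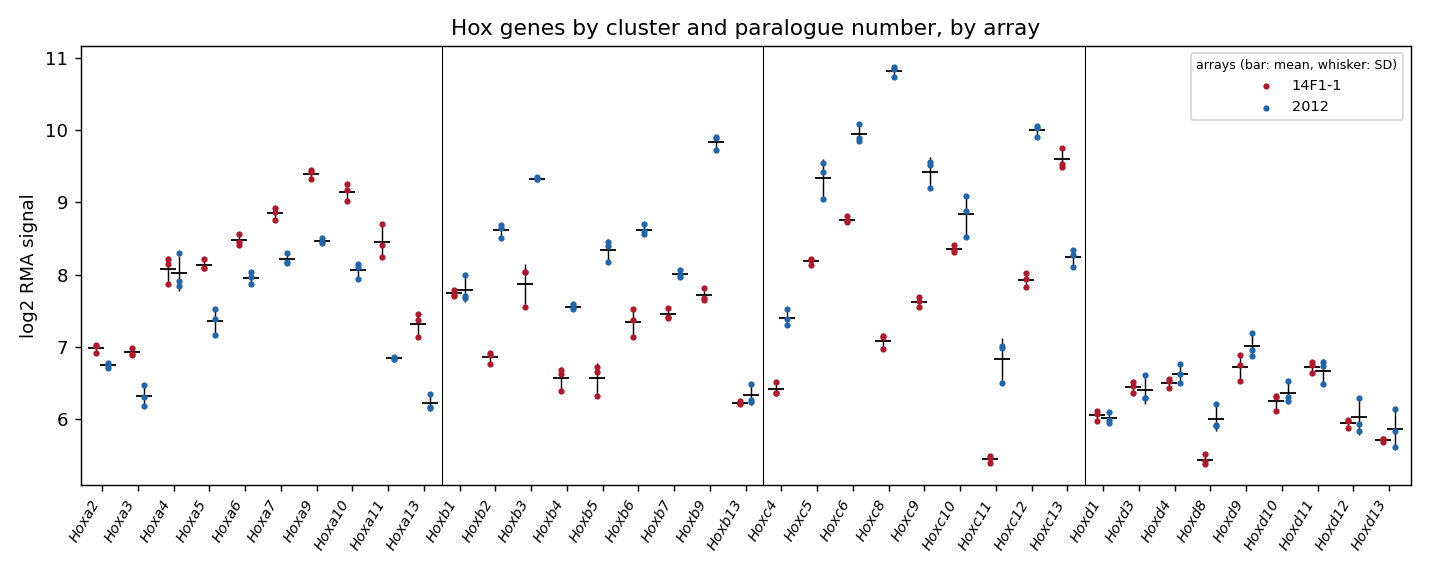
The y axis gives the log2 RMA signal of 37 Hox genes, ordered by cluster and paralogue number; points are arrays (14F1-1 red, left; 2012 blue, right), bars means and whiskers SDs (n = 3). Red lies above blue along the Hoxa cluster, below it along Hoxb and most of Hoxc up to Hoxc12, and the lines overlap or nearly so in most Hoxd genes.

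The clusters also hold microRNA genes. Mir196a-1 and Mir196a-2, chosen after their values were seen, were lower in 14F1-1 and are shown because both encode the same mature microRNA, miR-196a, which is known to target Hox messages. Of the others, Mir615 in the Hoxc cluster was lower (-0.49), while Mir10a in the Hoxb cluster (-0.31), Mir10b in the Hoxd cluster (-0.06) and Mir196b in the Hoxa cluster (0.22) did not pass. Of 271 microRNA genes that were measured and listed in RefSeq, 15 were higher and 49 lower (23.6% called, against 43.2% of all genes), and 5 differed at least 2-fold. The probe sets read the precursor or primary transcript, not the mature form. Mature sequences are from RefSeq on GRCm38.p6, all on the plus strand, with the seed (bases 2 to 8) in capitals.
miR-196a-5p (Mir196a-1, chr11:96265187-96265208, and Mir196a-2, chr15:102973365-102973386): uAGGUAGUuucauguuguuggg
miR-199b-3p (Mir199b, chr2:32318524-32318545): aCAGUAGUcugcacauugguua
let-7c-5p (Mirlet7c-1, chr16:77599672-77599693): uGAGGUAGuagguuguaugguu
miR-99a-5p (Mir99a, chr16:77598940-77598961): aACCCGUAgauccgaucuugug
Mir196a-1, 6065 bases from Hoxb9, gave 5.10, 5.06 and 5.09 in 14F1-1, against 6.81, 7.32 and 7.24 in 2012 (difference -2.04, adjusted p = 2.21e-11). Mir196a-2, between Hoxc10 and Hoxc9, gave 5.45, 5.28 and 5.37 in 14F1-1, against 6.35, 6.63 and 6.40 in 2012 (difference -1.09, adjusted p = 5.93e-08). Both precursors were lower in 14F1-1, as were Hoxb9 (-2.13), Hoxc10 (-0.48) and Hoxc9 (-1.80). Mir199b, which overlaps the gene Dnm1 in position, gave 4.77, 4.95 and 4.80 in 14F1-1, against 6.02, 6.20 and 6.13 in 2012 (difference -1.28). Dnm1 itself was lower by -1.36. The strand of Dnm1 was not compared, and whether Mir199b and Dnm1 share a transcript was not tested.

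The precursors of let-7c and miR-99a were the 2 that differed at least 2-fold in the other direction. They lie next to each other on chromosome 16. Mir99a gave 7.93, 8.22 and 8.26 in 14F1-1, against 5.86, 5.72 and 5.82 in 2012 (difference 2.34, adjusted p = 1.46e-11), and Mirlet7c-1 gave 6.33, 6.94 and 6.64 in 14F1-1, against 4.53, 4.77 and 4.64 in 2012 (difference 1.99, adjusted p = 1.59e-08). The host transcript Mir99ahg gave 8.82, 8.78 and 8.86 in 14F1-1, against 6.51, 6.75 and 6.74 in 2012 (difference 2.15). All 3 were thus higher in every 14F1-1 array. In the other lines Mirlet7c-1 had means of 6.35 in AFT011, 4.72 in AM14-1C4 and 6.30 in AM30-3F4.

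Transcription factors of mesodermal regions included 12 higher and 20 lower of 54 (59.3% called, against 43.2% of all genes), with a median of -0.05. Prrx2, a homeobox factor of limb and craniofacial mesenchyme, gave 6.82, 6.98 and 6.84 in the 14F1-1 arrays, against 11.68, 11.78 and 11.63 in the 2012 arrays (difference -4.82, adjusted p = 1.89e-18). Its paralogue Prrx1 did not pass. Eya1, a transcriptional coactivator, gave 6.12, 5.78 and 5.98 in 14F1-1, against 10.40, 10.59 and 10.63 in 2012 (difference -4.58). Gata3 (-2.44) and Gata4 (-2.23) were lower too, while Msx2 (2.14) and Ebf2 (2.55), a regulator of brown fat, were higher.

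Imprinted genes, many of which are active in fetal tissues and fall silent after birth, included 12 of 24 that were lower (50%, against 22% of all genes), with 2 higher and a median of -0.21. The amino acid transporter Slc38a4 gave 6.18, 6.08 and 6.12 in the 14F1-1 arrays, against 11.00, 10.94 and 11.04 in the 2012 arrays (difference -4.87, adjusted p = 3.81e-18). Necdin (Ndn) gave 5.69, 5.23 and 6.04 in 14F1-1, against 9.87, 10.05 and 10.13 in 2012 (difference -4.37), and the adaptor Grb10 gave 6.91, 7.03 and 6.87 in 14F1-1, against 11.08, 11.12 and 11.15 in 2012 (difference -4.18). Dlk1, above, and Nnat (-1.58) were next, and Mest (-1.26) was lower too. In 14F1-1 the means of Ndn, Mest and Slc38a4 lay close to or below the first quartile of the gene signals, those of Nnat and Grb10 below the median, and that of Dlk1 above it. The noncoding RNAs Meg3 (-0.07) and Rian (-0.19) of the Dlk1 domain, and Cdkn1c (0.03), did not pass and had low signals in both lines.

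Of 28 genes of fat cells 13 were higher (46.4%, against 21.2% of all genes) and 5 lower (median 0.11). Lipoprotein lipase (Lpl) gave 11.95, 11.99 and 12.01 in the 14F1-1 arrays, against 6.97, 6.32 and 6.82 in the 2012 arrays (difference 5.28, adjusted p = 9.97e-16). The fatty acid carrier Fabp4 gave 9.83, 9.80 and 9.67 in 14F1-1, against 6.61, 6.83 and 6.80 in 2012 (difference 3.02), and Plin4, a lipid droplet coat protein, gave 10.64, 10.84 and 10.79 in 14F1-1, against 8.67, 8.69 and 8.6 in 2012 (difference 2.11). Pparg, the central regulator of fat cell formation, was expressed in both lines at 11.38 ± 0.011 in 14F1-1 and 10.56 ± 0.073 in 2012 (SD, n = 3 each; difference 0.83). Of 8 adipocyte markers 3 were higher and 0 lower, with summed log2 signals of 60.7 to 60.9 in 14F1-1 and 56.2 to 57.6 in 2012, which did not overlap. Among those that did not pass were Adipoq (5.66 against 5.69), Plin1 (7.14 against 7.32), Cidec (6.72 against 6.62) and Lep (5.44 against 5.56), all below the median gene in both lines. The mitochondrial coactivator Ppargc1a (-2.23) was lower, as was fatty acid synthase (Fasn, -1.37). Of bone and cartilage genes 4 of 25 were higher and 2 lower (24% called, against 43.2% of all genes), with Dlx3 (1.42), Sox9 (0.87) and Dlx5 (0.77) higher and Sp7 (5.94 against 5.96), Ibsp (5.26 against 5.34) and Alpl (7.21 against 7.21) not passing.

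Contractile genes and targets of SRF and YAP included 8 higher and 12 lower of 29 (69.0% called, against 43.2% of all genes). Gamma smooth muscle actin (Actg2) gave 11.75, 11.59 and 11.63 in 14F1-1, against 7.39, 6.98 and 7.16 in 2012 (difference 4.48), and the myosin light chain Myl9 gave 6.76, 6.88 and 7.09 in 14F1-1, against 10.72, 10.93 and 10.76 in 2012 (difference -3.89). These contractile proteins thus went in opposite directions, and Acta2 did not pass (12.64 against 12.82). Of the YAP targets, Ankrd1 was lower, connective tissue growth factor (Ccn2, 1.65) higher, and Ccn1 was lower by a small amount (-0.39).

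Of 10 mesenchymal markers 7 lay above the median gene in 14F1-1 and 8 in 2012; 3 were higher and 3 lower, and their summed log2 signals ran from 91.7 to 92.0 in 14F1-1 and from 99.1 to 101.1 in 2012. Pdgfrb (11.40 against 11.42), Prrx1 (12.37 against 12.33) and vimentin (Vim, 13.82 against 13.55) were high, though lumican (Lum, 4.31 against 4.36) and the bone marrow marker leptin receptor (Lepr, 4.77 against 4.77) were low in both. Summed log2 signals of 12 hematopoietic markers ran from 71.6 to 72.5 over the 14F1-1 arrays and from 71.0 to 73.4 over the 2012 arrays; 1 of the 12 (Lyz2, 0.48) was higher and 0 lower. The sums of 11 endothelial markers ran from 68.6 to 69.0 in 14F1-1 and from 68.8 to 70.7 in 2012, with 1 lower (Egfl7, -0.21). For 9 hepatocyte or hepatoblast markers 0 were called in either direction. Of 15 epithelial and mesothelial markers 2 were lower, Cldn1 (-2.70) and Krt19 (-1.15), with sums of 101.4 to 102.1 in 14F1-1 and 105.2 to 108.8 in 2012. Of 11 smooth muscle and pericyte markers 5 were lower and 0 higher, with sums of 80.4 to 81.0 in 14F1-1 and 83.9 to 85.8 in 2012. The sums of 6 osteoblast markers ran from 40.7 to 40.9 in 14F1-1 and from 42.2 to 43.5 in 2012. The 1 lower member was Col1a1 (10.21 against 11.81), which is also among the mesenchymal markers. The sums of 8 markers of CXCL12-abundant reticular cells, several of them niche factors above, ran from 63.8 to 64.8 in 14F1-1 and from 66.5 to 67.3 in 2012 (3 higher, 3 lower). Of 10 hepatic stellate markers 1 was higher and 0 lower, with overlapping sums. Over all genes 21.2% were called higher and 22% lower, so several of these small marker counts lie near or below the shares of all genes. The part of any of these markers in the other results was not tested. In these cultures a lower signal may reflect fewer cells or less RNA per cell, which cannot be told apart.

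Transcripts of sterol and fatty acid synthesis were lower in 14F1-1 for most of the genes listed. Of 29 measured genes 23 were lower (79.3%, against 22% of all genes), 2 were higher and 4 did not pass, with a median of -0.78 against -0.04 over all genes. The desaturase Scd2 gave 10.74, 10.64 and 10.71 in 14F1-1, against 12.60, 12.66 and 12.60 in 2012 (difference -1.92), and acetyl-CoA carboxylase (Acaca) gave 8.93, 8.92 and 9.01 in 14F1-1, against 10.35, 10.53 and 10.54 in 2012 (difference -1.53). Srebf2, the transcription factor that switches on the sterol genes, gave 10.28, 10.15 and 10.25 in 14F1-1, against 11.54, 11.54 and 11.55 in 2012 (difference -1.31, adjusted p = 2.2e-11). Fads2 (-1.53), Fasn (-1.37) and Sc5d (-1.17) were lower as well. Of the 4 regulators and sterol sensors or carriers on the list, all 4 were lower. Among the 29, 2012 was the highest of the 5 lines for 19, and 14F1-1 the lowest for 13, against 5848 and 4500 of all 19938 genes. The members lower in 14F1-1 thus held both low 14F1-1 and high 2012 signals. The higher genes were Ebp (0.88) and Hsd17b7 (0.31).

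Sterol genes are switched on by SREBP factors through the sterol element, here searched as TCACNCCAC on both strands. It occurred in 1 of 27 available promoter sequences of the list, for 22 of its genes, and in 408 of 32851 promoters in all (1.24%). The match was in Hmgcs1, the enzyme that opens the mevalonate pathway, whose signals were 9.51, 9.56 and 9.61 in 14F1-1, against 10.67, 10.73 and 10.62 in 2012 (difference -1.12). Its promoter, from 250 bases before to 50 after the start (chr13:119690101-119690400, plus strand, RefSeq, GRCm38.p6), is shown because it carries the element, in capitals. A match is a description of the letters and no evidence of binding.
Hmgcs1 promoter: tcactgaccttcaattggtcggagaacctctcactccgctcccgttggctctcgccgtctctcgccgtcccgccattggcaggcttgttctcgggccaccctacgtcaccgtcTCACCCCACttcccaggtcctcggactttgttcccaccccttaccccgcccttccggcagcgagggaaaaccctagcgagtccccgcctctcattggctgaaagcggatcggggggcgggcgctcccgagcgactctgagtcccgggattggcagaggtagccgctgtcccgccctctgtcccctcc

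Cell cycle genes were also mostly lower, by smaller amounts: 35 of 44 (79.5%, against 22% of all genes), with 3 higher and a median of -0.46. Of 24 genes of the G1/S transition and replication 17 were lower, and of 20 of G2/M and mitosis 18. Mybl2, which drives late cell cycle genes, gave 8.39, 8.34 and 8.19 in 14F1-1, against 9.85, 9.62 and 9.60 in 2012 (difference -1.39). Tyms (-1.16), Mcm7 (-1.08), Cdk6 (-1.06), Cdt1 (-1.0) and Kif23 (-0.99) followed. Proliferation markers Mki67 (-0.31) and Top2a (-0.38) differed by under 0.5, and Rrm2 (0.73), Ccnd1 (0.40) and Nusap1 (0.40) were higher. The labels give no cell density or growth rate beyond confluence. Of p53 targets and cell cycle inhibitors 9 were higher and 7 lower of 22 (72.7% called, against 43.2% of all genes). The kinase Plk2 (-2.05) and Cdkn2a (-1.86) were lower, and Phlda3 (0.93) was higher; under the alternatives the number higher was between 3 and 9.

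Of 30 genes of glycolysis and the response to low oxygen 15 were higher (50%, against 21.2% of all genes) and 5 lower (median 0.18). The mitophagy receptor Bnip3 gave 10.56, 10.52 and 10.37 in 14F1-1, against 8.01, 8.15 and 8.44 in 2012 (difference 2.28), and the phosphofructokinase subunit Pfkl gave 10.57, 10.55 and 10.71 in 14F1-1, against 8.83, 8.75 and 8.61 in 2012 (difference 1.88). Vegfa (1.66), P4ha1 (1.27) and Pfkp (1.24) were higher too, and the neuronal enolase Eno2 (-1.43) was lower. Hypoxia targets Car9 (0.09), Adm (-0.15) and Ankrd37 (-0.11) did not pass, nor did the glucose transporter Slc2a1 (0.06). Genes of the unfolded protein response went the same way, with 12 of 20 higher (60%) and 3 lower (median 0.23). Dnajb9, a chaperone cofactor, gave 9.89, 10.01 and 9.92 in 14F1-1, against 8.17, 8.52 and 8.52 in 2012 (difference 1.53), and Chac1 (1.11), Xbp1 (0.81) and Pdia6 (0.80) were higher, while Hspa5, its main chaperone, differed by 0.16. Hsd11b1, which activates glucocorticoids, gave 9.96, 9.93 and 9.78 in 14F1-1, against 5.53, 5.01 and 5.23 in 2012 (difference 4.63). It was the largest member of the glucocorticoid-induced list, with 7 higher and 4 lower of 15 (73.3% called, against 43.2% of all genes). The other members of the list did not share a direction, since Tsc22d3 (0.75) and Dusp1 (0.74) were higher and Fkbp5 (-1.10) and Mt2 (-1.80) lower.

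**Figure D4:**
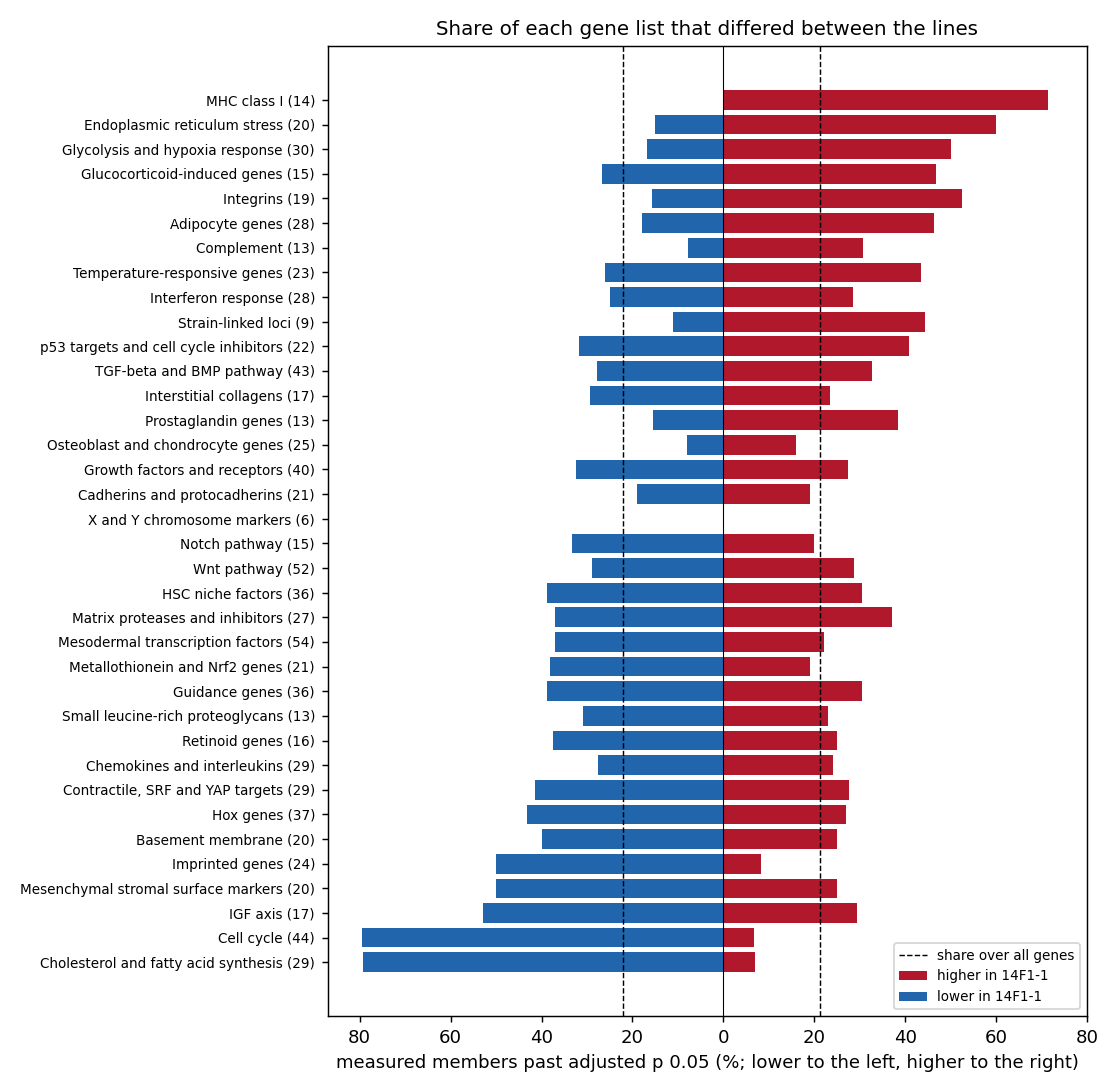
Bars give the percentage of the measured members of each gene list (number in brackets) that were called higher (red, right) or lower (blue, left) in 14F1-1, sorted by median difference; dashed lines mark the shares over all genes, 21.2% higher and 22% lower. Class I antigen presentation stands at one end with 10 of 14 higher, and cholesterol synthesis and the cell cycle at the other with 23 of 29 and 35 of 44 lower.

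Transcripts of antigen presentation by MHC class I were mostly higher in 14F1-1: 10 of 14 genes (71.4%, against 21.2% of all genes), with 0 lower and a median of 0.61. The peptide transporter Tap1 gave 9.50, 9.41 and 9.73 in the 14F1-1 arrays, against 7.35, 7.25 and 7.22 in the 2012 arrays (difference 2.27, adjusted p = 1.32e-13). Tap2 (1.66), the proteasome subunit Psmb9 (0.94), the class I regulator Nlrc5 (0.75) and beta-2 microglobulin (B2m, 13.03 ± 0.035 in 14F1-1 and 12.44 ± 0.035 in 2012) were higher as well. Of 8 genes of antigen processing 7 were higher. 14F1-1 was the highest of the 5 lines for 13 of the 14 genes. The class I molecules H2-Q4 (2.38), H2-M3 (1.43) and H2-T10 (0.42) were higher, but class I genes are near-identical copies that vary between strains, and which copy a probe set read is uncertain. Interferon-stimulated genes at large did not follow: 8 of 28 were higher and 7 lower (53.6% called, against 43.2% of all genes). Rtp4 (1.29), Ifi35 (0.99) and Stat2 (0.79) were higher and Ifit2 (-1.15) lower, while Mx1 (-0.07), Rsad2 (-0.11) and Oas1a (0.05) did not pass. Without replicate 1 of 2012, 11 were higher and 5 lower. Complement genes were called at about the rate of all genes (5 of 13), with Cd59a the largest.

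Of 9 genes known to differ between inbred strains, 4 were higher and 1 lower (55.6% called, against 43.2% of all genes), with a median of 0.03. Ifi202b gave 9.38, 9.51 and 9.57 in 14F1-1, against 4.72, 4.35 and 4.52 in 2012 (difference 4.95); the other lines held 4.47 in AFT011, 9.99 in AM14-1C4 and 6.57 in AM30-3F4. Glo1 (0.88) and Wdfy1 (0.68) were higher, and Nnt (-0.27), a mitochondrial transhydrogenase, was lower.

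Temperature went with the line, 37 °C for 14F1-1 and 33 °C for 2012 and for the other 3 lines of the set. Of 23 measured genes that respond to heat or cold 10 were higher and 6 lower (69.6% called), with a median of 0.09. Over all genes 43.2% were called, 21.2% higher and 22% lower, with a median of -0.04. The cold-inducible RNA-binding proteins split. Rbm3 gave 12.80, 12.83 and 12.74 in 14F1-1, against 13.01, 13.07 and 13.09 in 2012 (difference -0.26, adjusted p = 0.000256), the lowest of the 5 lines, whereas Cirbp gave 9.37, 9.77 and 9.71 in 14F1-1, against 9.25, 9.23 and 9.09 in 2012 (difference 0.43, adjusted p = 0.00265), the highest of the 5. Small heat shock proteins split as well: Hspb8 gave 10.76, 10.76 and 10.68 in 14F1-1, against 7.42, 7.88 and 8.26 in 2012 (difference 2.88), and Hspb1 gave 6.99, 7.05 and 6.81 in 14F1-1, against 10.47, 10.34 and 10.41 in 2012 (difference -3.46). The other lines held 11.61 in AFT011, 10.10 in AM14-1C4 and 11.47 in AM30-3F4 for Hspb1, all above 14F1-1. Hspa1a, whose copy Hspa1b is nearly identical, was higher at 9.03 ± 0.053 in 14F1-1 and 7.65 ± 0.15 in 2012 (difference 1.38), and so were Ahsa1 (0.97), Hspe1 (0.74), Bag3 (0.49), Hsf2 (0.48), Hsph1 (0.36), Cryab (0.26) and Dnajb1 (0.21). Lower were Hspa4l (-0.78), Stip1 (-0.33), Hspa9 (-0.26) and Hspd1 (-0.19). The abundant chaperones Hsp90aa1 (0.01) and Hspa8 (0.02) did not pass, nor did Serpinh1 (0.02), Dnaja1 (0.09), Chordc1 (0.09), Dnajb4 (0.04) or Hspa1l (0.02). Of the 23, 14F1-1 was the highest of the 5 lines for 9 and the lowest for 3, against 4561 and 4500 of all 19938 genes. No line was grown at both temperatures in this set, so temperature and line cannot be told apart.

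Xist and 4 of 5 Y-linked genes had signals below the first quartile in both lines. Xist, the RNA of the inactive X, gave 5.77, 5.75 and 5.71 in 14F1-1, against 5.57, 5.48 and 5.75 in 2012. The other lines had means of 5.56 in AFT011, 12.29 in AM14-1C4 and 11.87 in AM30-3F4. The Y-linked genes Kdm5d (5.23 against 5.24), Uty (4.46 against 4.50), Eif2s3y (4.03 against 4.08) and Zfy1 (4.78 against 4.81) were low in both, whereas AFT011 had 6.73 for Kdm5d, 7.36 for Uty and 7.80 for Eif2s3y. Zfy1 was low in AFT011 as well. Sry, at 7.76 against 7.83, lay above the median gene in both and in the other lines, with means of 7.71 in AFT011, 7.81 in AM14-1C4 and 7.79 in AM30-3F4, and did not pass.

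The direction of the differences also followed the chromosomes. For this, the 9916 genes with a mean signal over the 6 arrays above the median gene were used; their median difference was -0.0037. On chromosome X the median was 0.54, with 207 of 291 genes higher and 27 lower. It was 0.44 on chromosome 14 (236 higher and 32 lower of 338) and 0.38 on chromosome 10 (329 and 64 of 519). Chromosome 8 had the most negative median, -0.28 (84 and 323 of 565). Chromosomes 1 (0.29) and 12 (0.28) were next on the positive side, and 3 (-0.20) and 18 (-0.20) on the negative. When each chromosome was split in 3 by gene order, all 3 medians had the same sign on 14 of 20 chromosomes. They were 0.45, 0.58 and 0.56 on X, 0.49, 0.42 and 0.40 on chromosome 14, 0.31, 0.43 and 0.42 on chromosome 10, and -0.17, -0.26 and -0.42 on chromosome 8.

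Set against the mean of the 15 arrays, both lines departed from the rest on X and on chromosome 14: the X median was 0.15 in 14F1-1 and -0.33 in 2012, with the other 3 lines between 0.041 and 0.065. On chromosome 14 it was 0.22 in 14F1-1 and -0.22 in 2012. On chromosome 10 the departure was that of 14F1-1 (0.39, against 0.01 in 2012), and on chromosome 8 mainly that of 2012 (-0.09 in 14F1-1, against 0.18 in 2012). Of the 2012 arrays, replicate 1 lay farthest from 14F1-1 on X, 14 and 10 and nearest on 8; with each array left out in turn the difference ran from 0.46 to 0.58 on X, 0.40 to 0.48 on chromosome 14, 0.34 to 0.41 on chromosome 10 and -0.31 to -0.27 on chromosome 8. Genes with the largest differences on X included Xlr (5.53), Tmem47 (5.04) and Gpm6b (3.96), and on the negative side Gria3 (-4.43), Bgn (-4.27) and Hs6st2 (-3.45), so single genes departed from the chromosome's median. With every gene of a chromosome included, the medians were smaller, 0.022 on X, 0.055 on chromosome 14, 0.070 on chromosome 10 and -0.13 on chromosome 8. DNA copy number was not measured here.

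**Figure D5:**
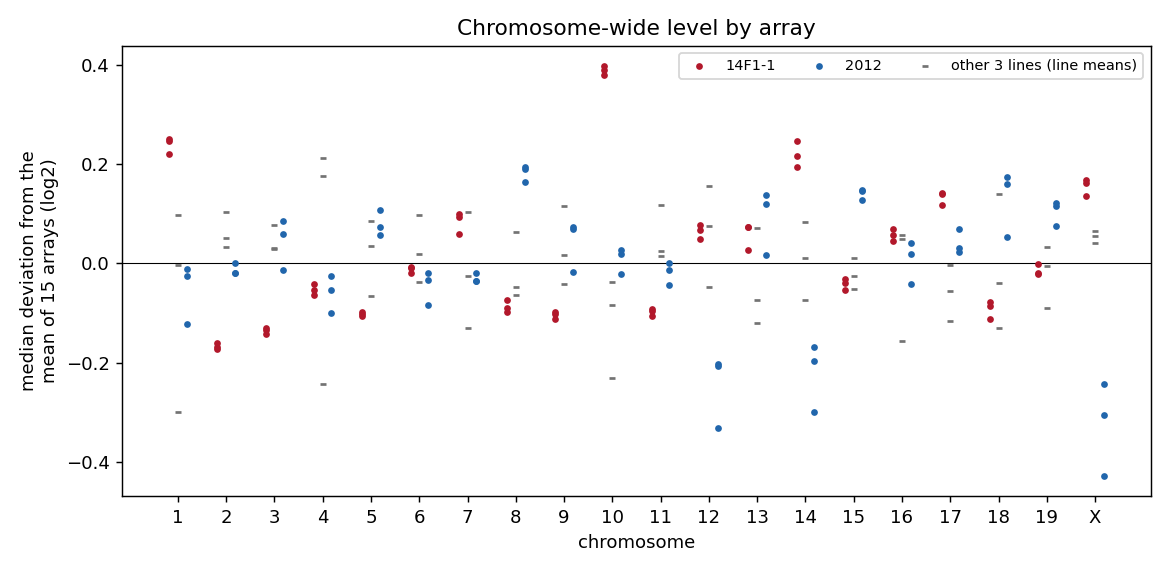
For each chromosome the y axis gives the median, over genes with signals above the median gene, of the deviation from the mean of 15 arrays (log2); red points are 14F1-1 arrays, blue points 2012 arrays, grey bars the means of the other 3 lines. The red points lie above the blue on X, 14 and 10 and below them on 8.

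A second pair of the same kind, BMC9 from adult bone marrow (strain given as H2ts6) and AFT024 from C57BL/6 fetal liver of day 14.5, both supportive and both grown at 33 °C, was used to see which differences it shared. It shares no array with the first pair and was normalized in another set of 18 arrays. In both pairs the fetal liver line is C57BL/6 and the bone marrow line has another strain label. Tissue, age and strain thus go together in both, and a shared difference cannot tell them apart. BMC9 differed from AFT024 at 4340 genes (21.8%). Of the 4217 genes higher in 14F1-1, 750 were also higher in BMC9 (17.8% of these and 35.5% of the 2110 higher in BMC9) and 644 were lower. Of the 4394 lower in 14F1-1, 954 were lower in BMC9 (21.7% of these and 42.8% of the 2230 lower in BMC9) and 534 were higher. Among the 2882 genes called in both pairs, 59.1% had the same sign. The difference between the pairs was itself past the threshold for 7068 genes.

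The genes called the same way in both pairs were ranked by the smaller of their 2 differences. On the higher side the first were Ifi202b (4.95 and 4.06), Tmem47 (5.04 and 3.74), Rpl39l (3.65 and 4.83), Crip1 (4.79 and 3.62), Angpt1 (4.38 and 3.45) and Calhm5 (4.78 and 3.28), given as 14F1-1 minus 2012 and then BMC9 minus AFT024. On the lower side these were Slc38a4 (-4.87 and -4.92), Sprr1a (-4.27 and -4.76), Grb10 (-4.18 and -4.54), Tmem176b (-4.06 and -4.19), Dlk1 (-3.93 and -5.54) and Klra6 (-3.86 and -4.47). Ifi202b, the first on the higher side, is among the genes listed above as known to differ between inbred strains. Angpt1 averaged 7.70 ± 0.90 in BMC9 and 4.26 ± 0.029 in AFT024 (SD, n = 3 each), and Dlk1 7.36 ± 0.19 in BMC9 and 12.90 ± 0.14 in AFT024 (SD, n = 3 each). Cxcl12 did not pass in the second pair (-0.26, adjusted p = 0.517), and its difference between the pairs was -3.65 (adjusted p = 2.71e-11). Vcam1 (-0.09), Kitl (-0.34) and Il7 (0.14) did not pass there either, and each differed between the pairs (adjusted p = 2.25e-13 for Vcam1, 1.42e-05 for Kitl and 5.83e-12 for Il7). Postn was higher in BMC9 (1.5, adjusted p = 9.27e-05), the opposite of the first pair (between pairs -5.49, adjusted p = 3.16e-16).

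Gene groups described for the first pair differed in how far the second shared them, and only some are given here. Of the 19 integrin subunits 6 were called the same way in both pairs and 2 in opposite ways. For the 20 genes of the unfolded protein response these counts were 3 and 0. Over all 19938 genes 2110 were higher and 2230 lower in BMC9 (21.8% called). Of these 19938 genes 1704 were called the same way in both pairs and 1178 in opposite ways. Of the 14 class I genes 6 were higher and 0 lower in BMC9 (median 0.32), and all 6 were also higher in 14F1-1. Of the 30 genes of glycolysis and hypoxia 15 were higher and 1 lower in BMC9, 10 of them called the same way in both pairs and 0 in opposite ways. Of the 37 Hox genes 18 were called the same way in both pairs and 2 in opposite ways. Of the 29 sterol and fatty acid genes 0 were called in either direction in the second pair (median 0.07). Of the 44 cell cycle genes 6 were higher and 7 lower in BMC9. Imprinted genes had 7 higher and 9 lower of 24, with 7 called the same way in both pairs and 4 in opposite ways.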

How the data were processed

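Per the labels' protocols, 100 ng of total RNA per array, extracted from confluent cells, was labelled and read on Affymetrix mouse gene 1.0 ST arrays. The deposited values are log2 signals per probe set; the submitters' processing notes name RMA and Partek, with no further settings given. The columns fall into 4 normalization sets of 18, 6, 12 and 15 arrays, and tests were run within a set except for the difference between pairs, which used 33 arrays of 2 sets and so compares differences and not levels. All 51 arrays were read; none were identical.

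Of 35556 probe sets 21789 named 1 gene, 1621 several and 12146 none in the platform annotation, and the brightest probe set of a gene was kept (19938 genes, 999 with several probe sets; 19856 symbols matched RefSeq). No background filter was applied, and the number of arrays limits the precision. limma 3.58.1 in R 4.3.3 (lmFit, contrasts.fit, eBayes) was fitted to the 15 arrays of 5 lines, and to the 18 arrays of 6 lines for the second pair, with Benjamini-Hochberg adjustment over all genes and a threshold of 0.05. The fit was tested on simulated data with 200 changed genes. Every difference is 14F1-1 minus 2012.

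Named genes were the 12 largest in each direction that were called and did not overlap between the lines, without accession-like, predicted and small RNA symbols; up to 6 called members per list by size; all niche, temperature and X and Y genes; the 6 per direction shared with the second pair; and up to 3 per direction on a chromosome. Other names, chiefly list members that did not pass or were smaller, were chosen after their values were seen. The members and the 36 lists were chosen with earlier results of these data known, so no list is independent evidence. Same-numbered arrays of the lines deviated together with correlations of 0.224, 0.207 and -0.015, so the numbers were not taken as pairs. Figures were drawn with matplotlib 3.10.9.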

Additional observations from a re-analysis of the deposited data

Results flagged for a closer look

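The difference between the pairs (14F1-1 minus 2012, less BMC9 minus AFT024) was examined for 25 genes named in the text. Of these 20 passed in limma's fit to 33 arrays, against 7068 of all 19938 genes. The 25 were the niche factors at least 2-fold different in the first pair and the genes ranked as shared by both pairs. Picking genes by a large difference in the first pair by itself favours a difference between the pairs. The largest departures were those of periostin (Postn, -5.49, adjusted p = 3.16e-16), tenascin C (Tnc, -4.98) and lubricin (Prg4, 4.68), which thus differed far more in the first pair or in the opposite direction in the second. The niche factors Cxcl12 (-3.65), Vcam1 (-3.25), Il7 (2.45), Ptn (-2.43), Cdh2 (-1.89), Kitl (1.89), Mgp (-1.70), Ncam1 (-1.66) and Angptl4 (1.5) also depended on the pair.

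Some of the genes named as called the same way in both pairs still differed in size, whereas Slc38a4, Sprr1a, Grb10 and Tmem176b were not among those that passed. The difference between the pairs was 1.61 for Dlk1, 1.5 for Calhm5, 1.3 for Tmem47, 1.18 for Crip1, 0.93 for Angpt1 (adjusted p = 0.029), 0.90 for Ifi202b and 0.60 for Klra6 (adjusted p = 0.0461), while Rpl39l had -1.18. For Dlk1 and Klra6, lower in both pairs, a positive value means a smaller drop in 14F1-1 against 2012 than in BMC9 against AFT024. The pairs differ in line, strain, temperature and normalization set, which cannot be told apart.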

How the results depend on the processing

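The number of genes called was 8611 and lay between 7296 and 9232 over gene-level alternatives: 7296 with the spread taken from 39 confluent arrays, 7803 from the 6 arrays of the pair (7758 genes shared with the 8611), 7691 of 10423 genes after a filter on low signal, 8669 with an intensity trend, 8618 with the mean of probe sets, 8950 after cyclic loess and 9232 with array weights. Testing all probe sets gave 12563. With a replicate block the count was 8877, and of 228 named genes 0 lost their call; same-numbered arrays share only a number. Leaving out 1 array gave 7966 to 8648 called genes and 1463 to 1495 at least 2-fold. Genes called the same way in both pairs numbered 1704, 1361 to 1950 under the alternatives and 1461 to 1723 with an array left out. Among lists, counts moved by over 1.5 times under some alternative for interferon genes (4 to 11 higher, 2 to 7 lower), p53 targets (3 to 9 higher), chemokines (4 to 7 higher), cadherins (2 to 6 higher), bone and cartilage genes (2 to 5 higher, 1 to 3 lower), Notch genes (2 to 5 higher, 3 to 5 lower), proteoglycans (1 to 3 higher), sterol genes (1 to 4 higher), imprinted genes (1 to 2 higher), and lower members of the integrin (1 to 3), glycolysis (3 to 5), retinoid (3 to 6), surface marker (6 to 11) and strain (1 to 2) lists. The share of higher genes among those called ran from 47.2% to 52.5%.

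Chromosome medians depended on the signal filter, an alternative chosen after seeing the data. Without it they were -0.13 on chromosome 8, 0.070 on 10, 0.055 on 14 and 0.022 on X. After cyclic loess they were -0.25 on chromosome 8 and 0.41 on 10. With an array left out they ran from -0.31 to -0.27 on chromosome 8, 0.34 to 0.41 on 10, 0.40 to 0.48 on 14 and 0.46 to 0.58 on X. Of the named genes 0 reversed; C1qtnf1, Omd, Notch3 and Sox5, all with differences under 0.5, lost their call under 1 to 4 alternatives. Small differences of genes with low signals are the least certain, and the causes were not tested.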

Other observations

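Several smaller gene groups held large single differences. In the retinoid pathway, with 4 higher and 6 lower of 16 genes (62.5% called, against 43.2% of all genes), the binding protein Crabp1 gave 7.90, 7.96 and 8.0 in 14F1-1, against 12.34, 12.20 and 12.16 in 2012 (difference -4.28), while Rdh10, which makes retinaldehyde, gave 11.90, 11.93 and 11.98 in 14F1-1, against 8.17, 8.06 and 8.28 in 2012 (difference 3.77). Dhrs3 (3.29), which turns retinaldehyde back into retinol, was higher too. In the prostaglandin list, with 5 higher and 2 lower of 13 (53.8% called), the synthases of prostaglandin E2 (Ptges, -3.72) and prostacyclin (Ptgis, -2.43) were lower, and the receptors Ptger1 (1.72), Ptgfr (1.10) and Ptger4 (1.02) higher. The lines did not overlap in Ptges, with 7.31, 7.12 and 7.2 in 14F1-1, against 10.92, 10.94 and 10.94 in 2012.

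Of 21 metallothionein and antioxidant genes 4 were higher and 8 lower (57.1% called, against 43.2% of all genes). The glutathione transferases Gstt1 (3.17), Gstm2 (2.20) and Gsta4 (1.77) and catalase (Cat, 1.17) were the higher ones, while the cystine transporter Slc7a11 (-1.72) and Nqo1 (-1.12), both targets of Nrf2, were lower. In the Notch pathway 3 of 15 genes were higher and 5 lower (53.3% called, against 43.2% of all genes; 5 were higher without replicate 1 of 2012), and the targets Hey1 (1.63) and Hey2 (-1.28) had opposite signs and the receptor Notch1 (-1.29) was lower. Of 20 surface markers of mesenchymal stromal cells 5 were higher, among them Cd9 (1.20) and Cd200 (1.01), and 10 lower, among them Alcam (-2.88) and Ly6e (-2.29). The share called was 75%, against 43.2% of all genes.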
